A study of Oryza sativa Japonica Group with 12 samples.

Results

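The report describes what over-expression of the microRNA miR156 went with in a young leaf of rice (Oryza sativa, Japonica group). It rests on the 6 arrays whose titles name leaf L6, out of 12 arrays in all. They are 3 arrays of transgenic plants that over-express miR156 (OE_L6) and 3 arrays of wild-type plants (WT_L6). The OE_L6 arrays came from independent lines, Md15 for replicate 1, Md43 for replicate 2 and Mh9 for replicate 3, and the WT_L6 arrays from biological repeats labelled WT1 to WT3, called wild-type plants below, so a difference between OE replicates may be a difference between lines. All plants were germinated on MS medium, grown on in hydroponics and collected at 45 days. Leaves were counted on the main tiller in order of emergence, which makes L6 a young leaf and L3 an old leaf. The OE plants alone had been selected on 50 mM hygromycin, and a transgenic line with normal miR156 was not analysed here. Over-expression, transformation and selection therefore cannot be told apart in any difference below. The promoter of the transgene is not given in the sources used here, and miR156 itself was not analysed here.

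MiR156 is a plant microRNA that is abundant in the juvenile phase and declines as a shoot ages. It pairs with a site in the transcripts of many SPL genes, which code for transcription factors with an SBP domain, and lowers their output. SPL proteins in turn promote the adult phase, act on flowering through MADS-box genes, and in rice restrain tillering. The series asks which genes change with extra miR156, whether they are its targets or lie further downstream.

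An Affymetrix array gives 1 signal per probe set, a group of short probes meant for 1 transcript, though some are annotated to several genes. Levels below are linear signals as deposited, and the median signal of the L6 arrays ran from 52.9 to 55.5. Means are given ± SD with n = 3 arrays a group, and a difference is the OE_L6 mean minus the WT_L6 mean of log2(signal + 16), a scale that shrinks the differences of dim probe sets. A probe set passed when its limma p, adjusted by Benjamini-Hochberg over all 34316 probe sets tested, was under 0.05. Leaf-blade markers were bright in both groups. The summed signal of 7 leaf-blade marker genes was 29500 to 32400 in OE_L6 and 30300 to 31900 in WT_L6. The small subunit gene of Rubisco, RBCS, had the highest mean of them, 12800 in OE_L6 and 12900 in WT_L6. Pearson correlations across probe sets were 0.976 to 0.989 among OE_L6 arrays, 0.967 to 0.985 between OE_L6 and WT_L6 arrays, and 0.974 to 0.990 among WT_L6 arrays. Arrays of the groups were thus nearly as alike as arrays within a group. Some arrays stood apart. OE_L6 replicate 1 had a 3′ signal of the Dap control that exceeded the 5′ signal by 5.35 on the log2 scale, and a signal of 117 for an 18S ribosomal RNA probe set, against 495 and 631 in the other OE_L6 arrays and 941, 744 and 764 in WT_L6. At the 18S, 5.8S, 25S and 28S ribosomal RNA control probe sets, every OE_L6 array lay below every WT_L6 array. Their log2 differences ran from -1.23 to -0.22 in L6 and from -0.58 to -0.28 in L3, and the cause was not tested. WT_L6 replicate 1 was at least 2-fold above its whole group at 195 probe sets whose other arrays were within 1.2-fold of each other, and OE_L6 replicate 2 was as far below its group at 208.

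Few probe sets passed in L6, which does not show that few changed, since one that did not pass may still have differed. Of the 34316 probe sets, 35 passed (0.102%), 24 of them higher (0.0699%) and 11 lower (0.0321%) in OE_L6. An unadjusted p under 0.05 was found at 2650 (7.72%), and the groups did not overlap at 5211 (15.2%), the 35 among them. Of the probe sets that passed, 17 of the 24 that rose (70.8%) and 4 of the 11 that fell have no gene in the annotation, which names none for 46.7% of all probe sets tested. The 35 stand for 30 distinct genes or probe set families. The rises were larger than the falls. On the log2 scale of the differences, 21 of the 24 that rose differed at least 2-fold and 13 at least 4-fold. Among the 11 that fell, 4 differed by 2-fold or more on that scale. In 15 of the 24 the WT_L6 mean was under 50, below the median signal of the array, so the size of those rises rests on a dim wild-type signal. Under limma, 20 of the 35 also passed when the 6 L6 arrays were fitted alone, and 19 passed in each of the 6 fits that left out 1 array.

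**Figure D1:**
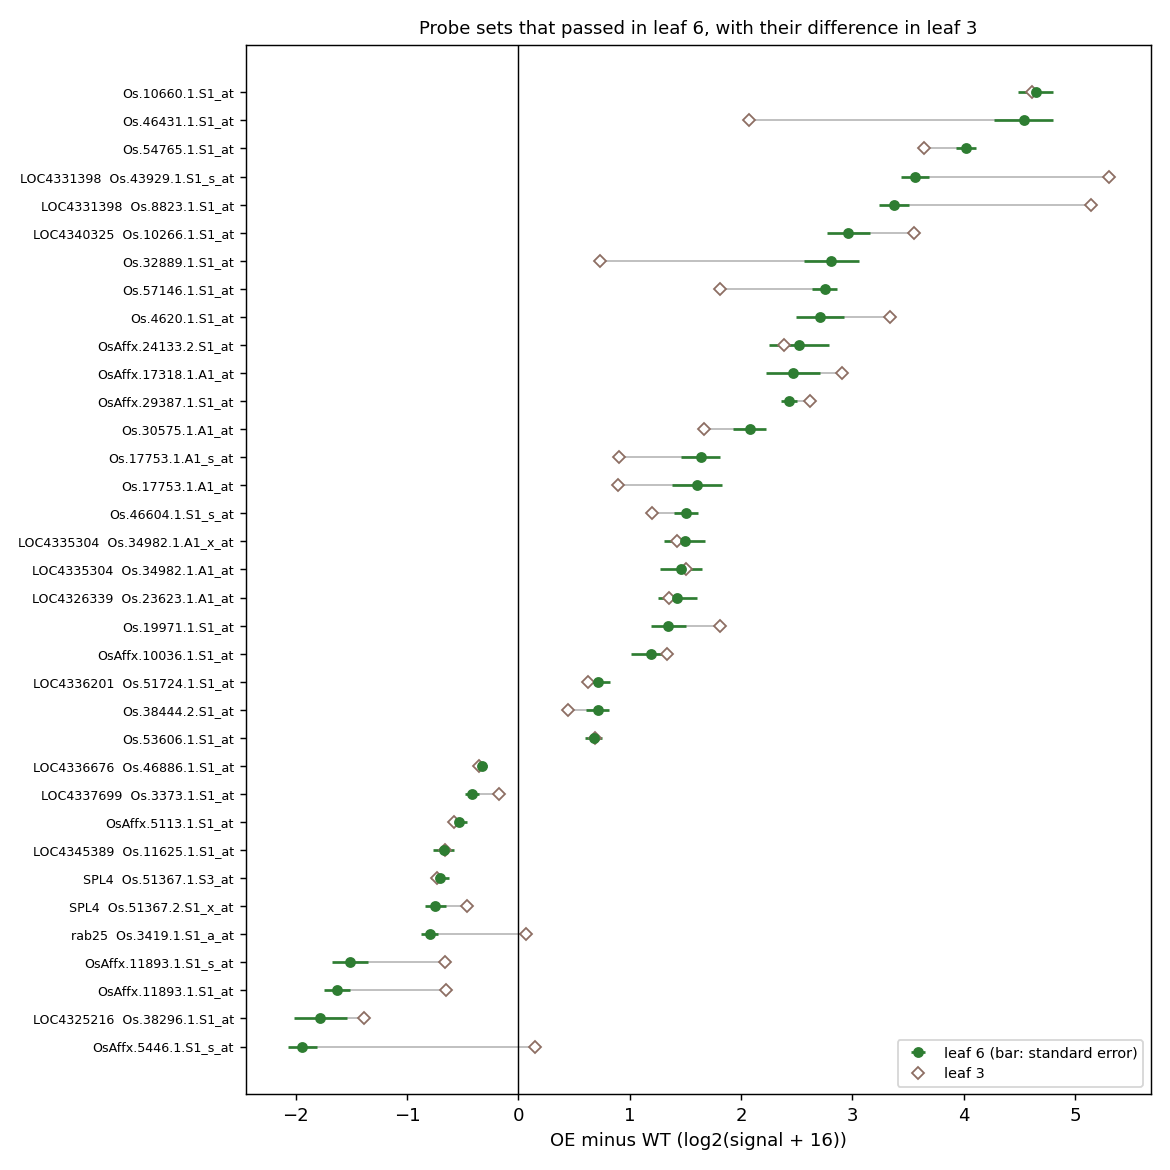
Difference between OE and WT on the log2(signal + 16) scale for the 35 probe sets that passed in leaf 6, 1 per row. Filled circles are leaf 6 with the standard error of the fit, and open diamonds are the same contrast in leaf 3. The diamonds lie on the same side of 0 as the circles in 33 of 35 rows, the exceptions being rab25 and OsAffx.5446.1.S1_s_at.

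The highest rise was that of Os.10660.1.S1_at, which the annotation does not name. Its signal was 1460, 1330 and 1230 in OE_L6 replicates 1 to 3, against 36.4, 37.5 and 40.5 in WT_L6. All OE lines were thus bright and all wild-type plants dim, with a log2 difference of 4.65 (SE 0.16, limma adjusted p = 3.11e-07). Os.46431.1.S1_at, also without a gene, was at 2070, 1510 and 2020 in OE_L6 and at 111, 39.1 and 58.1 in WT_L6 (log2 4.54, SE 0.26). Os.54765.1.S1_at had the smallest adjusted p of all, 1.23e-08 in limma, with 332, 338 and 376 in OE_L6 against 5.74, 5.68 and 8.01 in WT_L6 (log2 4.02). The lines agreed closely at this probe set. OsAffx.29387.1.S1_at was as even, at 172, 170 and 168 in OE_L6 against 18.6, 20.3 and 16.7 in WT_L6 (log2 2.43). Os.46604.1.S1_s_at was bright in wild type as well, with 2330, 1850 and 2390 in OE_L6 and 819, 724 and 730 in WT_L6 (log2 1.51, limma adjusted p = 0.000129). Of the other unnamed probe sets that rose, Os.57146.1.S1_at, Os.32889.1.S1_at, Os.4620.1.S1_at, OsAffx.24133.2.S1_at, OsAffx.17318.1.A1_at and Os.30575.1.A1_at had log2 differences of 2.75, 2.81, 2.71, 2.52, 2.47 and 2.08. Lower down came the pair Os.17753.1.A1_s_at (1.64) and Os.17753.1.A1_at (1.61), then Os.19971.1.S1_at (1.35), OsAffx.10036.1.S1_at (1.19), Os.38444.2.S1_at (0.71) and Os.53606.1.S1_at (0.68). When 1 array was left out, OsAffx.10036.1.S1_at passed in 0 of 6 fits, Os.17753.1.A1_at and Os.38444.2.S1_at in 2, Os.19971.1.S1_at in 4 and Os.53606.1.S1_at in 5.

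Among the loci that the annotation gives, those that rose have no name beyond a locus number. LOC4331398 was read by 2 probe sets. Os.43929.1.S1_s_at gave 326, 239 and 362 in OE_L6 against 12.2, 9.94 and 11.5 in WT_L6 (log2 3.56), and Os.8823.1.S1_at gave 260, 211 and 325 against 9.72, 10.3 and 12.5 (log2 3.37). The locus was dim in every wild-type plant and bright in every OE line. LOC4340325 was at 332, 234 and 239 in OE_L6 and at 16.4, 22.2 and 21.7 in WT_L6 on Os.10266.1.S1_at (log2 2.96, limma adjusted p = 7.41e-05). Its other probe set, Os.37590.1.S1_at, was at 123, 136 and 118 in OE_L6 and at 134, 143 and 127 in WT_L6, so the probe sets of this locus disagreed. LOC4335304 gave 428, 293 and 517 in OE_L6 against 134, 136 and 138 in WT_L6 on Os.34982.1.A1_at and a like difference on a partner probe set (log2 1.46 and 1.49), while a further one, Os.46517.1.S1_at, had a log2 difference of 0.06. LOC4326339 (log2 1.42) and LOC4336201 (log2 0.72) completed the loci that rose. Leaving out 1 array took the call from LOC4336201 in all 6 fits, from LOC4335304 in 5 of 6 and from LOC4326339 in 4 of 6.

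Among the 11 probe sets that fell, the lowest was OsAffx.5446.1.S1_s_at, which has no gene in the annotation. It was at 32.1, 49.3 and 30.9 in OE_L6 and at 182, 176 and 202 in WT_L6, a log2 difference of -1.94 (SE 0.13, limma adjusted p = 0.000129). In the old leaf the same probe set was dim in both groups, at 17.1, 19.8 and 20.1 in OE_L3 and 16.8, 19.7 and 10.9 in WT_L3. OsAffx.11893.1.S1_at fell to 51.6, 61.5 and 71.2 in OE_L6, against 256, 230 and 187 in WT_L6 (log2 -1.63), and its partner OsAffx.11893.1.S1_s_at fell alongside (log2 -1.51). LOC4325216 was at 82.8, 125 and 48.9 in OE_L6 and at 370, 324 and 262 in WT_L6 (log2 -1.78), and it passed in 2 of the 6 fits that left out 1 array. The remaining falls were under 2-fold on the log2 scale of the differences, which shrinks those of dim probe sets. In linear signal this limit did not hold for rab25, with means of 39.7 in OE_L6 and 80.7 in WT_L6. Beside rab25 and SPL4, the remaining falls were those of LOC4345389 (log2 -0.67), OsAffx.5113.1.S1_at (-0.54), LOC4337699 (-0.42) and LOC4336676 (-0.33). LOC4337699 was the brightest of them, with 1650, 1680 and 1720 in OE_L6 against 2380, 2100 and 2290 in WT_L6. The call of each of these 4 others was lost in all 6 fits that left out 1 array. A second probe set of LOC4336676, Os.12612.1.S1_at, was far brighter, at 4150, 4110 and 3970 in OE_L6 and 4290, 4330 and 4390 in WT_L6, with a log2 difference of -0.09 that did not pass.

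The dehydrin-type gene rab25 (LOC4326935), from the family of late embryogenesis abundant proteins that build up in drying tissue, fell to 39.7, 42.0 and 37.5 in OE_L6, against 88.1, 78.3 and 75.7 in WT_L6. The groups were well apart and each was even (log2 -0.79, SE 0.08, limma adjusted p = 0.0021). The call held in all 6 fits that left out 1 array and with the L6 arrays alone. It was lost with the replicate number as a block, where no lower probe set passed. In OE_L6 the signal lay below the median signal of the array. Of the 5 dehydrin and LEA genes tested, rab25 was the 1 that passed. Dhn1 was at 769, 641 and 786 in OE_L6 and at 1240, 992 and 756 in WT_L6, where the lowest wild-type array lay within the OE range. RAB16C, RAB16D and RAB21 had log2 differences of -0.07, -0.17 and -0.02. The median over the 5 genes was -0.17, beside 0.02 over all 15517 genes tested with 1 probe set each, where the groups did not overlap at 15.9%.

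All 6 measured SPL genes listed here as having a miR156 site had a lower mean in OE_L6, by different margins. Of these, 1 passed, SPL4. The site group holds 8 genes found in the gene table, of which SPL11 and SPL13 have no probe set with their name alone. SPL genes not found there by name are in neither SPL list. With the brightest probe set of each gene, 9 of 15517 genes passed (0.058%), 5 of them lower (0.0322%), with p adjusted over all probe sets. When limma was fitted to those 15517 probe sets alone, 2 of the 9 still passed, rab25 and LOC4331398, and SPL4 had an adjusted p of 0.0633. In the site group, the groups of arrays did not overlap at 4 of 6, beside 15.9% of all genes, and 5 of 6 had an unadjusted p under 0.05, beside 7.23%. The median log2 difference was -0.69 in L6, beside -0.19 in the old leaf. In the 5 measured SPL genes without a site the median was 0.03, no gene passed, none had an unadjusted p under 0.05, and the groups overlapped at each on its brightest probe set. A second, dimmer probe set of SPL6, Os.8121.1.S1_at, had groups that did not overlap, at 331, 306 and 339 in OE_L6 against 372, 364 and 390 in WT_L6 (log2 -0.20, limma adjusted p = 0.670). The site group was drawn up from what is known of rice SPL genes.

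SPL4 (LOC4328461) fell on the probe set Os.51367.2.S1_x_at to 206, 201 and 226 in OE_L6, against 361, 342 and 390 in WT_L6 (log2 -0.75, SE 0.10). On Os.51367.1.S3_at the signal was 75.7, 70.8 and 81.8 in OE_L6 against 143, 133 and 126 in WT_L6 (log2 -0.70, SE 0.08). On both, each OE line lay well below each wild-type plant. A further tested probe set, Os.51367.1.S1_x_at, was dimmer and had a smaller difference, with 33.8, 44.2 and 41.4 in OE_L6 against 44.9, 60.5 and 55.4 in WT_L6 (log2 -0.32, limma adjusted p = 0.561). The last, Os.51367.1.S2_at, had no signal above 11.2 on any L6 array and was not tested. The limma adjusted p was 0.0195 on Os.51367.2.S1_x_at and 0.00791 on Os.51367.1.S3_at. When 1 array was left out it was 0.0506 to 0.116 and 0.022 to 0.0565, so the call was lost in all 6 such fits on Os.51367.2.S1_x_at and in 2 of 6 on Os.51367.1.S3_at. SPL12 was as even without passing: 337, 322 and 348 in OE_L6 against 585, 606 and 562 in WT_L6, a log2 difference of -0.77 (SE 0.16, limma adjusted p = 0.233). Its adjusted p was 0.342 to 0.699 with 1 array left out. Fitted on the L6 arrays alone, SPL12 had an adjusted p of 0.0428, while the SPL4 probe sets lost their calls, with 0.0719 on Os.51367.2.S1_x_at and 0.0641 on Os.51367.1.S3_at.

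SPL14, known in rice for fewer tillers and more branched panicles when its level is high, had the lowest mean difference of the SPL genes. Its level was uneven between the wild-type plants. SPL14 was at 58.3, 67.5 and 69.5 in OE_L6 and at 404, 364 and 86.0 in WT_L6, a log2 difference of -1.65 (SE 0.53, limma adjusted p = 0.568). The OE lines were alike, while WT_L6 replicate 3 lay close to them. Without that plant the log2 difference of SPL14 was -2.30, and without WT_L6 replicate 1 it was -1.28. In SPL7 the reverse held, with 68.0, 167 and 184 in OE_L6 against 215, 232 and 183 in WT_L6, a log2 difference of -0.63. OE_L6 replicate 1, the array whose controls stood apart, was the low one, and without it the difference was -0.23. With any other array left out it ran from -0.86 to -0.56. SPL16, a gene that acts on grain width, was at 67.8, 61.1 and 53.9 in OE_L6 against 85.2, 90.7 and 77.7 in WT_L6 (log2 -0.39). SPL2 overlapped between the groups, with 362, 349 and 324 in OE_L6 and 332, 448 and 509 in WT_L6 (log2 -0.28). Of the SPL genes without a site, SPL15 was the brightest, with 2810, 2630 and 2630 in OE_L6 against 2660, 2680 and 2730 in WT_L6. SPL8, which shapes the ligule, SPL1, SPL6 and SPL9 had log2 differences of 0.17, 0.27, 0.03 and -0.16.

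**Figure D2:**
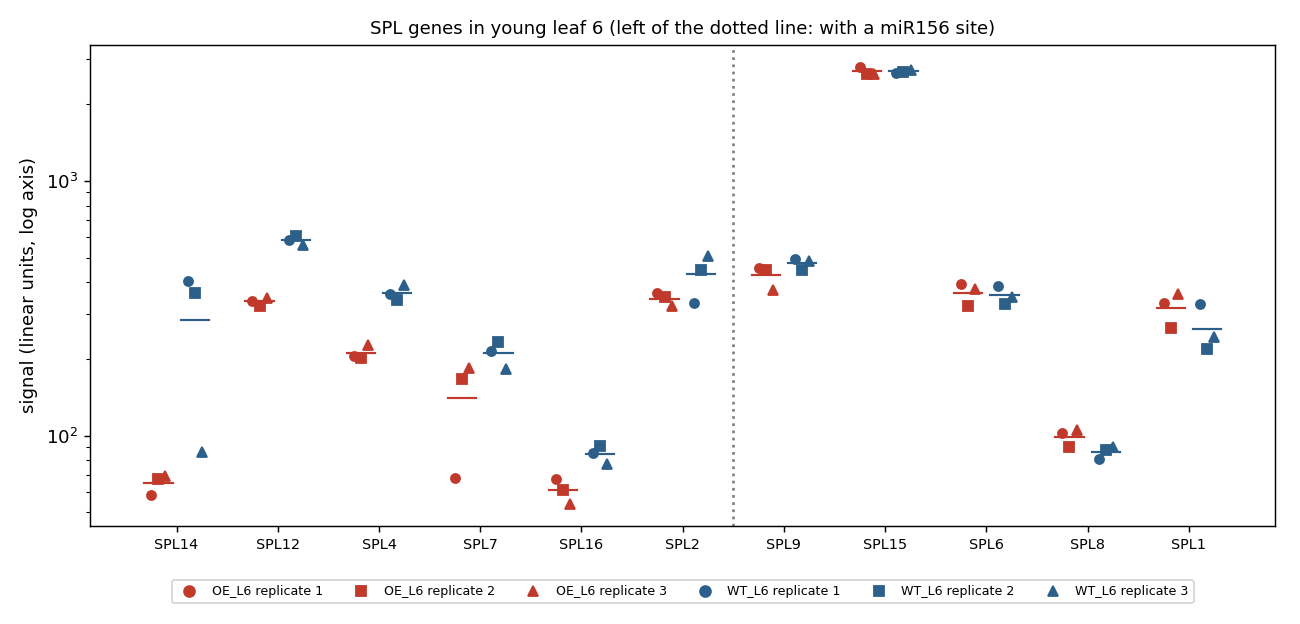
Signal of 11 SPL genes in every leaf 6 array (log axis), on the brightest probe set of each, with OE_L6 in red left of WT_L6 in blue, symbols for replicates and a line at each mean. The OE_L6 points lie below all WT_L6 points for SPL14, SPL12, SPL4 and SPL16, while the 5 genes without a miR156 site, right of the dotted line, overlap.

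MADS-box genes lie downstream of SPL proteins in the flowering pathway. Of 31 with a probe set, 11 were bright enough to be tested. None passed in limma, 4 had an unadjusted p under 0.05, 7 of the 11 had a negative and 4 a positive difference, and the groups did not overlap at 5. Over all 15517 genes, 7.23% had such a p, 44.7% a negative difference and 15.9% groups that did not overlap. MADS18, a relative of APETALA1 that promotes flowering, was at 275, 369 and 312 in OE_L6 and at 713, 563 and 710 in WT_L6, a log2 difference of -1.02 (SE 0.20, limma adjusted p = 0.183). MADS56, a relative of the floral integrator SOC1, was at 581, 472 and 688 in OE_L6 and at 1160, 1060 and 1130 in WT_L6, where the difference was -0.94 on the log2 scale (SE 0.17, limma adjusted p = 0.126). MADS16, known for lodicule and stamen identity in the rice flower, was at 243, 267 and 277 in OE_L6 and at 476, 443 and 544 in WT_L6, a log2 difference of -0.85 (limma adjusted p = 0.0623). In all 3 genes each OE line lay well below each wild-type plant. MADS16 passed with quantile normalization (adjusted p = 0.0122), with arrays centred on their median (0.034) and with a pseudocount of 64 (0.0379), and it had an adjusted p of 0.160 to 0.342 when 1 array was left out. In the old leaf its log2 difference was -0.05. MADS55 had the highest log2 difference of the 11 tested, 0.57. MADS50, close kin of MADS56, had a log2 difference of -0.17, MADS14 -0.12 and MADS22 0.01. The florigen gene HD3A and MADS15 were too dim to be tested. The photoreceptor gene PHYA, with a log2 difference of 0.36, and DTH8, which delays heading under long days, with 0.50, lay above 0 without passing.

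The summed signal of 10 flower and young panicle markers was 506 to 579 in OE_L6 and 681 to 804 in WT_L6. The gap was that of MADS16, the brightest of the 10: without it the other markers summed to 239 to 302 in OE_L6 and 238 to 260 in WT_L6. Of the 10, 8 had a mean under 50 in L6. Shoot meristem markers summed to 509 to 561 in OE_L6 and 502 to 551 in WT_L6, root markers to 118 to 154 against 114 to 126, and markers of senescing leaves to 2220 to 3220 against 2230 to 2930. Each of these last ranges overlapped between the groups. Fewer cells of a kind and less RNA per cell cannot be told apart in whole leaves.

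Among named genes with an unadjusted p under 0.05 and groups that did not overlap, the 8 lowest in OE_L6 were SPL14 and 7 genes outside the SPL family, and none of the 8 passed. The 7 were picked for their low values. DREB1G, from a family of transcription factors that switch on cold-response genes, was at 27.6, 20.1 and 17.1 in OE_L6 and at 589, 103 and 190 in WT_L6, a log2 difference of -2.72 (SE 0.60, limma adjusted p = 0.288). Its OE arrays were all dim, and WT_L6 replicate 1 was the brightest by far. ABA8OX1, which breaks down abscisic acid, was at 65.7, 63.3 and 50.9 in OE_L6 and at 769, 130 and 267 in WT_L6 (log2 -2.07). JAZ13, a repressor of jasmonate signalling, was at 29.8, 60.3 and 24.2 in OE_L6 and at 386, 225 and 84.8 in WT_L6 (log2 -2.04). The same wild-type plant, replicate 1, led in both. It led again at wrky38, with 102, 140 and 102 in OE_L6 against 1070, 297 and 240 in WT_L6, and at DREB1B, with 49.0, 48.8 and 45.2 against 477, 80.0 and 103. BHLH148, a helix-loop-helix factor tied to jasmonate and drought responses, was at 74.1, 74.3 and 87.1 in OE_L6 and at 565, 162 and 93.3 in WT_L6, and DREB1A at 17, 19 and 15.4 against 167, 35.6 and 28.2. Without WT_L6 replicate 1 the log2 differences were -2.07 for DREB1G, -1.43 for ABA8OX1, -1.58 for JAZ13, -1.13 for wrky38, -0.75 for DREB1B, -0.57 for BHLH148 and -0.53 for DREB1A, and the median over the 6 DREB genes was -0.54 in place of -0.95. In the old leaf the log2 differences were -2.23 for DREB1G, -1.71 for ABA8OX1, -1.01 for JAZ13 and -0.75 for wrky38. They were -1.67 for DREB1B, -0.27 for BHLH148 and -1.37 for DREB1A there, and none of the 7 passed. The median over the 6 DREB genes was -0.94 in the old leaf.

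WT_L6 replicate 1 was the leading array well beyond these genes. Of the 34316 probe sets, 56 had groups that did not overlap and lay at least 2-fold lower in OE_L6 on the log2 scale of the differences. Of these 56, 4 passed. WT_L6 replicate 1 was the highest wild-type array at 44 of them, replicate 2 at 5 and replicate 3 at 7. At 25 of the 56, replicate 1 was at least 2-fold above both other wild-type plants. Another 56 probe sets lay at least 2-fold higher in OE_L6 on that scale without overlap, and 21 of these passed. OE_L6 replicate 2 was at least 2-fold above both other lines at 11 of them and replicate 3 at 3. These counts describe the arrays, and their part in the single results was not tested.

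**Figure D3:**
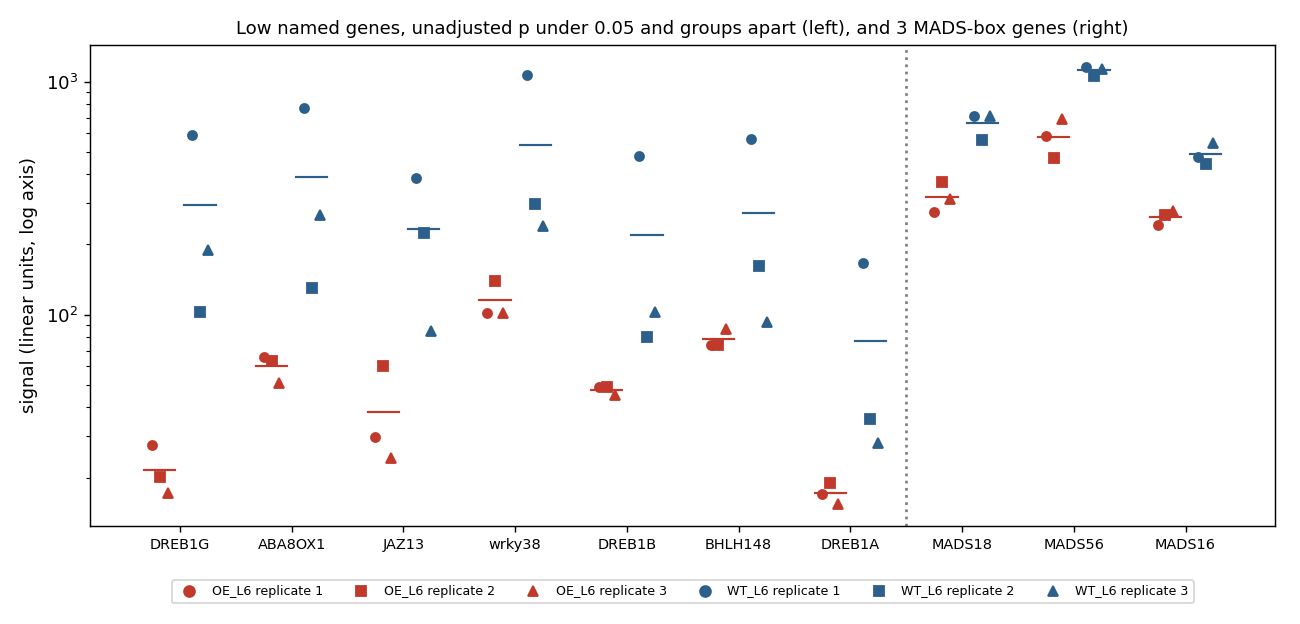
Signal in every leaf 6 array (log axis) for the 7 lowest named genes outside the SPL family among those with an unadjusted p under 0.05 and groups apart, left of the dotted line, and for 3 MADS-box genes, right of it, with OE_L6 in red left of WT_L6 in blue, symbols for replicates and a line at each mean. WT_L6 replicate 1 (circle) is the highest point of each of the 7 genes, while the WT_L6 points of MADS18, MADS56 and MADS16 lie close together.

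JAZ genes, which code for repressors that jasmonate removes, were spread widely: 10 of 15 tested had a negative and 5 a positive difference, and the median was -0.20. None of the JAZ genes passed in limma, and the unadjusted p of 1 was under 0.05. Over all genes, 44.7% had a negative difference and 7.23% such a p. JAZ11 had the highest difference of the 15, a log2 of 0.54. JAZ6 was at 379, 601 and 399 in OE_L6 and at 751, 676 and 619 in WT_L6 (log2 -0.58), and JAZ10 at 297 ± 81.6 in OE_L6 and 883 ± 471 in WT_L6 (log2 -1.42). The 13 lipoxygenase, jasmonate synthesis and receptor genes had a median of -0.06, with no gene under an unadjusted p of 0.05. Among 16 genes of abscisic acid synthesis and signalling, the median was -0.03 and ABF2, a bZIP transcription factor gene of the pathway, was at 319, 361 and 328 in OE_L6 and at 519, 388 and 424 in WT_L6 (log2 -0.38). Phosphate starvation genes had 10 of 12 negative differences and a median of -0.13, with none passing in limma and 3 under an unadjusted p of 0.05, beside 44.7% and 7.23% over all genes. SPX2 was the lowest, at -0.60 with overlapping groups. SPX1 and SPX4, which sense phosphate status, had log2 differences of -0.39 and -0.23, and PHR1, a transcription factor gene of the phosphate starvation response, had 0.24. Both SPX genes had groups that did not overlap, with OE_L6 the lower, and PHR1 likewise with OE_L6 the higher. Over all genes, the groups did not overlap at 15.9%. Nitrate reductase NIA1 was at 458, 155 and 335 in OE_L6 and at 784, 538 and 615 in WT_L6 (log2 -1.10, limma adjusted p = 0.587), with a second probe set at -0.23. Phenylpropanoid and lignin genes had 14 of 19 negative differences and a median of -0.09. 4CL2 was the lowest of them, with a log2 difference of -0.53 and overlapping groups. The only one with an unadjusted p under 0.05 was CAD3, a cinnamyl alcohol dehydrogenase gene, at 1290, 1390 and 1200 in OE_L6 and 1340, 1790 and 2150 in WT_L6, where the groups also overlapped.

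No named gene beyond SPL4 and rab25 passed in either direction. The highest named gene among those tested was BURP17, of a plant-specific protein family, at 199, 35.7 and 163 in OE_L6 and at 16.9, 13.5 and 28.5 in WT_L6, a log2 difference of 1.84 (SE 0.43, limma adjusted p = 0.347). The array of line Md43, replicate 2, was the dim one there, and without it the log2 difference was 2.48 and the limma adjusted p 0.000523. The heat stress factor gene HSF25 was at 102, 112 and 359 in OE_L6 and at 52.9, 50.7 and 38.8 in WT_L6 (log2 1.499). Its second probe set, Os.10942.1.S1_a_at, had a log2 difference of 0.10. The Md43 array was the brightest at OSE727A, with 372, 1550 and 645 in OE_L6 against 263, 321 and 315 in WT_L6, at pinA, with 514, 1810 and 797 against 355, 411 and 436, and at the potassium transporter gene HAK17, with 196, 516 and 217 against 173, 114 and 139. In BGLU9, of the beta-glucosidase family, line Md15 was the brightest, at 313, 199 and 84.6 in OE_L6 against 67.7, 61.2 and 72.9 in WT_L6. Of these 6 genes, the Md43 array stood apart at 4. It was also the array at least 2-fold above both others most often among the 56 probe sets higher in OE_L6. Each line had 1 array in L6, so line and array cannot be told apart. In OE_L3 replicates 1 to 3, BURP17 was at 4190, 3770 and 4000 and OSE727A at 893, 1010 and 690. There pinA was at 1220, 1290 and 980 and HAK17 at 594, 707 and 797. Wild type was alike in the old leaf, with WT_L3 means of 4000 for BURP17, 921 for OSE727A, 1140 for pinA and 588 for HAK17. In that order, the log2 differences in L3 were 0.002, -0.032, 0.096 and 0.255, and none passed. More even lines were seen at CCA1, a morning gene of the circadian clock, with 136, 136 and 93.6 in OE_L6 and 73.7, 60.4 and 64 in WT_L6 (log2 0.73), and at BIP1, a chaperone of the endoplasmic reticulum, with 1780, 1680 and 1660 in OE_L6 and 1350, 1310 and 1320 in WT_L6, a log2 difference of 0.36 (SE 0.07, limma adjusted p = 0.237). Cht1, a chitinase gene, was at 25.5, 21.8 and 37.9 in OE_L6 and at 15.5, 8.64 and 11.5 in WT_L6 (log2 0.66).

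Differences were small among the genes of photosynthesis. Photosystem, light-harvesting and Rubisco genes had a median log2 difference of 0.03 over 6 genes, with the lowest at -0.06 (CAB2R) and the highest at 0.09 (LHCP). Chlorophyll synthesis genes had a median of 0.08 over 12, from -0.11 (PORB) to 0.22 (CHLI). Of 43 cell cycle and DNA replication genes, 31 had a positive difference and the median was 0.06, beside 55.3% and a median of 0.02 over all genes, with none passing in limma and 1 under an unadjusted p of 0.05. The replication helicase genes MCM5 and MCM7 were at 308, 361 and 258 and at 164, 225 and 142 in OE_L6, against 356, 300 and 138 and 212, 182 and 83.7 in WT_L6. WT_L6 replicate 3 was the low array in both, and without it the median of the cell cycle list was -0.08. Hormone lists lay close to 0, with medians of 0.02 for auxin over 47 genes, 0.04 for cytokinin over 27, 0.05 for gibberellin over 12 and 0.03 for brassinosteroids over 11. RR2, a type-A response regulator of cytokinin, was at 109, 113 and 121 in OE_L6 and at 86.9, 91.9 and 87.2 in WT_L6 (log2 0.31). KAO, an enzyme of gibberellin synthesis, had a log2 difference of 0.48, and the auxin genes ARF16 and IAA12 had 0.46 and 0.43. Small RNA pathway genes had a median of -0.04 over 14 genes, with SHL2, an RNA-dependent RNA polymerase, at 0.29 and AGO2 at -0.22.

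Further list members were examined, and none of them passed. SWEET6A, of a sugar transporter family, was at 192, 167 and 194 in OE_L6 and at 223, 217 and 237 in WT_L6 (log2 -0.27), and the invertase gene CIN7 had -0.23, both with groups that did not overlap. The 27 sugar genes had a median of 0.03. Cellulose synthase gene CESA2 was at 21.4, 148 and 113 in OE_L6 against 120, 193 and 157 in WT_L6 (log2 -0.88), where OE_L6 replicate 1 was the low array. The cell wall gene BC1L6 was at 32.8, 22.3 and 28.2 in OE_L6 and at 68.8, 34.0 and 37.9 in WT_L6 (log2 -0.49). Among the expansins, which loosen cell walls, EXP2 was at 572, 357 and 541 in OE_L6 against 373, 267 and 325 in WT_L6 (log2 0.57) and EXPL2 had -0.38. These expansins overlapped between the groups, as did the laccase gene LAC20 (0.57), the aquaporin genes PIP1-3 (0.52) and PIP2-5 (-0.31), the metal transporter gene YSL5 (0.28) and the metallothionein genes MT4A (0.34) and MT2B (0.29). The transcription factor gene NAC067 was at 83.8, 62.2 and 114 in OE_L6 and at 359, 120 and 87.2 in WT_L6 (log2 -0.79), with WT_L6 replicate 1 the highest once more. DREB1E was at 91.7, 137 and 95 in OE_L6 and at 241, 136 and 195 in WT_L6 (log2 -0.73). GAMYB, a transcription factor gene of gibberellin signalling, had 0.26, the cytokinin receptor gene HK4 0.25 and ORC2, of the origin recognition complex, 0.20, each with OE_L6 above WT_L6 on every array. The kinase genes CIPK16 and CIPK32 had -0.20 and -0.26 and the lignin gene 4CL3 -0.33, each with OE_L6 below WT_L6 on every array. Groups that did not overlap were found at 15.9% of all genes.

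**Figure D4:**
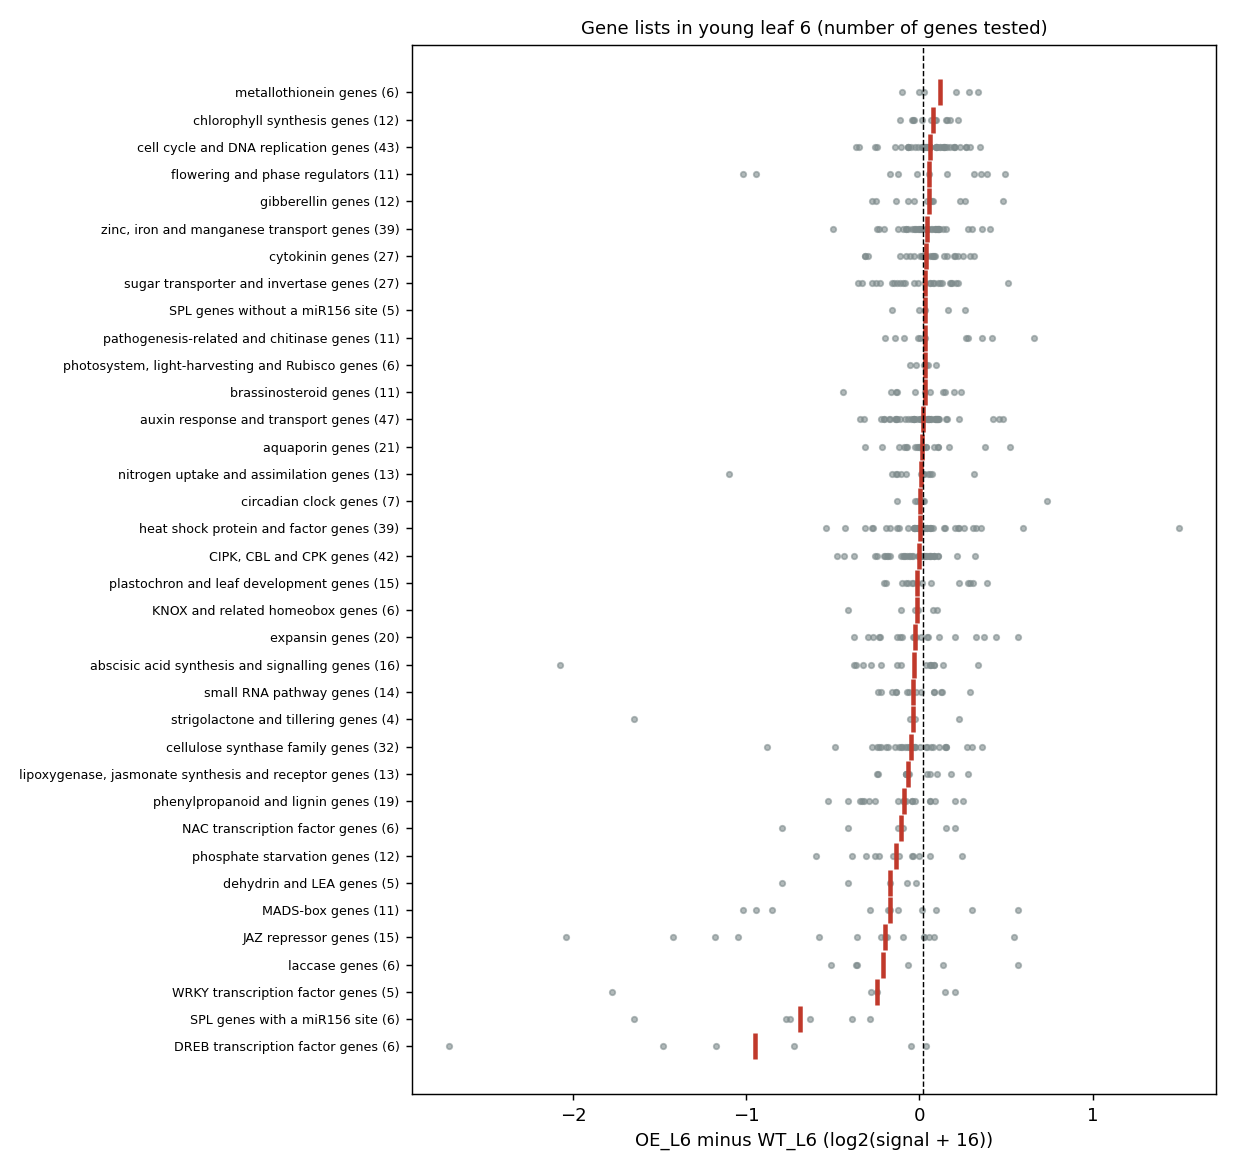
Difference between OE_L6 and WT_L6 on the log2(signal + 16) scale for the members of 36 gene lists, 1 point per gene (its brightest probe set), with the median of each list in red and the number of genes tested in brackets. The dashed line is the median of all 15517 genes, 0.02, and the lists of SPL genes with a site and of DREB genes have the lowest medians, -0.69 and -0.95.

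Most of what passed in the young leaf also differed in the old leaf. The labels give the same lines and the same wild-type repeats for both leaves, without saying that the leaves came from the same plants. Of the 35 probe sets, 33 had the same sign in L3, and 23 of them passed there too (19 higher and 4 lower), where 41 probe sets passed in all (0.119%). The remaining 12 passed in L6 without passing in L3, which does not show that the leaves differ. A test of the difference between the leaves called 3 probe sets (0.00874%), and 844 had an unadjusted p under 0.05. LOC4331398 differed less in L6 than in L3 on both of its probe sets, by -1.75 on Os.43929.1.S1_s_at (limma adjusted p = 0.0275) and by -1.77 on Os.8823.1.S1_at (0.0345). The log2 differences in L3 were 5.31 and 5.14. OsAffx.5446.1.S1_s_at fell in L6, and the difference between the leaves was -2.08 (SE 0.19, limma adjusted p = 0.0184), where its L3 signal was dim in both groups. At rab25 the log2 difference was -0.79 in L6 and 0.07 in L3, where it was at 36.9, 37.7 and 32.4 in OE_L3 and 35.5, 36 and 28.6 in WT_L3, and the test of that contrast just missed (limma adjusted p = 0.0727). With line or wild-type repeat as a random block, 1 of the 3 was called. All 3 were lost when any 1 of OE_L6 replicate 1 or the 3 WT_L6 arrays was left out.

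Array control probe sets were kept out of the fit and held the widest gaps of all. Of 64 probe sets whose names begin with RPTR, 2 were at least 2-fold apart in L6. RPTR-Os-K01193-1_at was at 3820, 3280 and 1770 in OE_L6 and at 15.3, 12.3 and 26.3 in WT_L6 (log2 6.40), and RPTR-Os-A00196-1_s_at was at 2290, 2020 and 2510 in OE_L6 and at 35.8, 32.6 and 51.9 in WT_L6 (log2 5.36). Both were bright in all OE lines and dim in all wild-type plants. The other RPTR probe sets differed by -0.18 to 0.20 and none had a mean above 86.5 in either group. What these control probe sets read is not given in the sources used here.

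**Figure D5:**
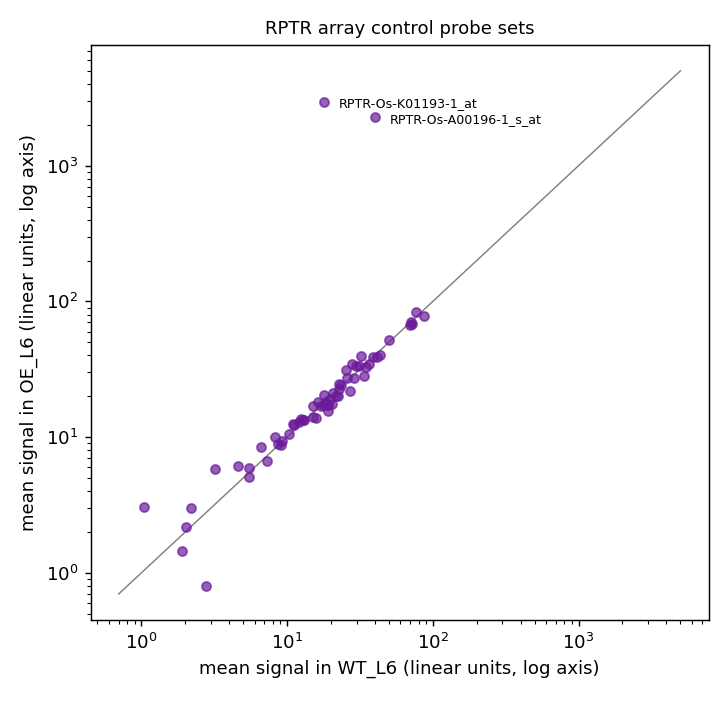
Mean signal of 64 RPTR control probe sets in OE_L6 against WT_L6, both on log axes, n = 3 arrays each, with the line of equal signal. Most points lie along the line, and the 2 named ones stand far above it, at means of 2960 and 2270 in OE_L6 and 17.9 and 40.1 in WT_L6.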

How the data were processed

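The deposited table gives a linear intensity for each of 57381 probe sets on every array, from biotin-labelled cRNA per the labels' protocols. How the authors scanned, summarised and scaled the arrays is not given in the sources used here, and detection calls were not analysed here. Linear units were inferred from the skewed, never negative values.

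Intensities entered the fit in R 4.3.3 as log2(value + 16), without further normalization. The 187 control probe sets and those under the 40th percentile of the mean were left out. A limma 3.58.1 model (eBayes with a trend) over 4 groups and 12 arrays, with 8 residual degrees of freedom, gave OE minus WT in L6, the same in L3, and their difference. Tests were two-sided, adjusted by Benjamini-Hochberg. The fit was checked on simulated data with independent normal noise and the same spread in every group. It was not checked for unequal spreads or for arrays that stand apart. Names were joined and figures drawn in Python 3.11.15 (pandas 2.3.3, matplotlib 3.10.9).

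Names came from the platform annotation, which gives 1 gene for 22436 non-control probe sets, several for 95 and none for 34663, through the gene table of assembly ASM3414082v1. All 17905 gene IDs were found there. The comparison and the 42 gene and marker lists were chosen with earlier results of these data known. Lists use the brightest probe set per gene and no set test. The rule for names took all probe sets that passed, all probe sets of the listed SPL genes, the 2 strongest members of each list, and the 8 highest and 8 lowest named genes with an unadjusted p under 0.05 and groups apart. Of the strongest list members, some close to 0 are not described, and other list members are named as examples and were chosen after their values were seen. Other results are given as counts and ranges. P-values of the main fit rest on the spread between OE lines and between wild-type plants, pooled over both leaves. Old-leaf arrays spread more widely than young-leaf arrays. Variances averaged 0.115 for OE_L3 and 0.169 for WT_L3, against 0.0469 for OE_L6 and 0.0425 for WT_L6. The fit of the L6 arrays alone leaves the old-leaf spread out. The number of arrays limits precision.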

Additional observations from a re-analysis of the deposited data

Results flagged for a closer look

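A test of the difference between leaves set 3 probe sets apart, OE minus WT in L6 less the same in L3. LOC4331398 had -1.748 on Os.43929.1.S1_s_at and -1.772 on Os.8823.1.S1_at, and OsAffx.5446.1.S1_s_at had -2.084.

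Outside the main measurement, 2 of the 64 RPTR control probe sets carried signal in the OE lines far above the wild-type plants. The log2 difference was 6.403 for RPTR-Os-K01193-1_at and 5.359 for RPTR-Os-A00196-1_s_at. In the old leaf the same probe sets had 6.805 and 5.409.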

How the results depend on the processing

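Of the 35 probe sets that passed, 19 passed with each array left out in turn, and 11 passed under every alternative that tested them, though 10 of the 11 were not tested with 1 probe set per gene and 3 not with the 60th percentile filter. The count of 35 (24 higher, 11 lower) was 22 (15, 7) with a 60th percentile filter, 16 (14, 2) with a 1.5-fold minimum and 2 (1, 1) with 1 probe set per gene, which tests 9 of the 35. Array weights gave 268 (131, 137), and the cause was not tested; WT_L6 replicate 2 had a weight of 5.278 there. The L6 arrays alone gave 28 (22, 6). With 1 array left out, 20 to 45 passed, 15 to 33 higher and 4 to 12 lower. The lowest counts came without OE_L6 replicate 1 (20), WT_L6 replicate 2 (21) and WT_L6 replicate 3 (22). The difference between leaves, 3 probe sets, gave 0 with a pseudocount of 1 or a 1.5-fold minimum, 6 with a pseudocount of 64 or a filter over the L6 arrays, 7 with no filter, 23 with array weights, 1 with the plant as a random block or 1 probe set per gene, and 0 to 4 with 1 array left out.

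Whether replicate numbers pair the samples was not settled. Deviations from the group mean correlated at 0.204, 0.497 and -0.095 for same-numbered L6 arrays, and at -0.434 to 0.35 for the others. In L3 they correlated at 0.73, -0.724 and 0.802 for same-numbered arrays, and at -0.88 to 0.829 for the others. Deviations from a mean of 3 arrays depend on each other, so these values cannot exclude pairing. With the replicate number as a block, 11 passed, 11 higher and 0 lower.

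Some named genes near 0 changed sign, none with an adjusted p under 0.68. SPL15 was at 0.025 with arrays centred on their median and 0.004 with array weights, which also turned CAB2R (0.064) and MCM7 (-0.059). With 1 array left out, the log2 difference ran from -0.033 to 0.016 for SPL15, -0.022 to 0.112 for SPL6, -0.135 to 0.065 for CAB2R, -0.035 to 0.292 for LHCP, -0.07 to 0.872 for MT2B, -0.007 to 0.08 for GLO1, -0.026 to 0.164 for MADS4, -0.001 to 0.261 for SGR, -0.024 to 0.468 for NYC1, -0.091 to 0.544 for MCM5 and -0.162 to 0.434 for MCM7. The scaling of the arrays is unknown, and a shift of all transcripts at once would not be seen.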
